A study of Mus musculus with 63 samples.

Results

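The genes described here are 10 textbook targets of the transcription factor p53, Cdkn1a, Ccng1, Sesn1, Zmat3, Bax, Bbc3, Trp53inp1, Eda2r, Phlda3 and Mdm2, chosen by gene symbol from the 54752 genes of each count table, and the question was whether activity of the tamoxifen-inducible recombinase CreERT2, or loss of the Mediator kinases CDK8 and CDK19, went with a higher level of them. RNA-Seq read counts per gene were available for mouse small intestinal organoids, which are epithelial cultures grown from crypts, and for intestinal epithelial cells (IECs) isolated from mice, in 19 groups of 3 libraries each. The organoids were of C57BL/6 strain, and CreERT2, where present, was driven by the Villin promoter, so that 4-hydroxytamoxifen (4-OHT) activates it in the epithelium only. In the first experiment 5 organoid lines all received 100 nM 4-OHT for 24 h and were collected at day 7: VillinCreERT2 (recombinase, no floxed allele), C57BL/6 (no recombinase), CDK8 iIEC-KO (VillinCreERT2/Cdk8 fl/fl), Cdk8 fl/fl/Cdk19-/- (no recombinase, CDK8 retained), and CDK8 iIEC-KO/Cdk19-/- (loss of both kinases). In the second, a VillinCreERT2/Cdk8 fl/fl/Cdk19-/- line received 0.001% ethanol (EtOH) or 100 nM 4-OHT for 24 h and was collected at days 3, 5, 7 and 10, and the same genotype was collected at day 10 in Wnt3-conditioned medium (Wnt3-CM). In the third, VillinCreERT2/Cdk8 fl/fl organoids with 1 null Cdk19 allele and 1 allele for a kinase-dead CDK19 (Cdk19 ko/D173A) received EtOH or 4-OHT and were collected at day 7. IECs came from VillinCreERT2 and CDK8 iIEC-KO/Cdk19-/- mice 14 days after the last of 5 daily injections of tamoxifen at 80 mg/kg.

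Each organoid group was 1 line, so that genotype cannot be told apart from other differences between lines, and the 3 libraries of a group were not stated to come from separate mice. Their p-values therefore measure the spread between cultures or preparations of a line. EtOH-treated VillinCreERT2 and C57BL/6 organoids were not analysed here. Within the VillinCreERT2/Cdk8 fl/fl/Cdk19-/- line, 4-OHT itself, CreERT2 activity and deletion of CDK8 came together and cannot be told apart, and every EtOH control of that line already lacked CDK19.

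p53 is a transcription factor that is kept scarce by the ubiquitin ligase MDM2 and accumulates after DNA breaks and other stress. It binds DNA as a tetramer on pairs of a short palindromic motif, and it switches on genes that halt the cell cycle, genes that promote cell death, and genes, Mdm2 among them, that shut the response down again. In the intestine the pathway is known for the response of crypt cells to irradiation, and Cre, which cuts DNA, is known to be able to damage it.

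On GRCm38, with the GENCODE vM21 annotation, the cell cycle and growth genes lie at chr17:29090976-29100727 (Cdkn1a), chr11:40748552-40755311 (Ccng1), chr10:41809935-41908424 (Sesn1) and chr3:32334792-32366014 (Zmat3). The death and survival genes lie at chr7:45461697-45466898 (Bax), chr7:16308393-16318205 (Bbc3), chr4:11156431-11174379 (Trp53inp1), chrX:97333840-97377216 (Eda2r) and chr1:135766119-135769136 (Phlda3), and the feedback inhibitor Mdm2 lies at chr10:117688875-117710758. Counts cover all exons of a gene.

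Promoter sequences are shown where a window held the letters of the p53 binding motif. RefSeq promoter windows on GRCm38.p6, each with 250 bases before and 50 bases after an annotated start, were found for 8 of the 10 genes in 12 entries, with none for Trp53inp1 and Zmat3. Both strands were searched for the p53 consensus decamer, 1 copy of the palindromic motif, with no mismatch allowed. It was present in 5 of the 12 entries, those of Cdkn1a, Mdm2, Bax, Ccng1 and the second start of Sesn1, and in 8.36% of all 32851 promoter windows. The Cdkn1a window held 2 copies with 12 bases between them, the first beginning at position -73 when the start is counted as 0, and 0.0731% of all windows held 2 copies at most 13 bases apart. No copy was found in the windows of Phlda3, Eda2r, the 3 starts of Bbc3, the second start of Cdkn1a or the first start of Sesn1. The matching stretches, with 30 bases on either side, read 5′ to 3′ on the gene's strand with the motif in capitals as follows.
Cdkn1a, chr17:29090876-29090967, plus strand, upstream of the gene: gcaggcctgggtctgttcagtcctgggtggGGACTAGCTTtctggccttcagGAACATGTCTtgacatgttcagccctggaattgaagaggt
Mdm2, chr10:117710905-117710974, minus strand, upstream of the gene: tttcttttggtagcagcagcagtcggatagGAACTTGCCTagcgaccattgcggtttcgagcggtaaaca
Bax, chr7:45467060-45467129, minus strand, upstream of the gene: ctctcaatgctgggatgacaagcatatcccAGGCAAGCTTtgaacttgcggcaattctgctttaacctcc
Ccng1, chr11:40755432-40755501, minus strand, upstream of the gene: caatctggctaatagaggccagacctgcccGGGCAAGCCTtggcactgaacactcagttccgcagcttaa
Sesn1, chr10:41887236-41887305, plus strand, before the second start and inside the gene: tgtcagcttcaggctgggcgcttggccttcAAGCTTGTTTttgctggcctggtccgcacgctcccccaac
A match is a description of the letters and not a site at which p53 was measured.

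The 57 libraries held 15485959 to 32909565 counts in genes, with a median of 19374952. All 10 genes passed the filter on low counts in each of the count tables. Levels are given as CPM, counts scaled to a common library size, after TMM scaling within a table, so levels are compared within a table only. The targeted genes were not clearly lower in the libraries labelled as knockouts. In the day 7 lines Cdk8 averaged 75.6 CPM in VillinCreERT2, 56.9 in C57BL/6, 80.6 in CDK8 iIEC-KO, 64.8 in Cdk8 fl/fl/Cdk19-/- and 66.3 in CDK8 iIEC-KO/Cdk19-/-. Cdk19 averaged 25.6 and 27.7 CPM in the Cdk19-/- lines and 28.1 to 31.0 CPM in the others. After 4-OHT and EtOH, Cdk8 averaged 36.9 and 39.3 CPM at day 3, 55.7 and 55.7 CPM at day 10, and 52.2 and 47.5 CPM in Wnt3-CM. The counts are per gene and not per exon, so loss of the deleted part was not tested, and genotypes are given as labelled. The lines differed in sex-linked transcripts, which bears on Eda2r, a gene on the X chromosome. Xist gave 7125 to 12674 counts in the VillinCreERT2 and C57BL/6 libraries and at most 10 in those of the other 3 day 7 lines, which in turn held 961 to 1322 counts of Ddx3y. Epithelial markers were detected in every group. Their sum did not overlap between EtOH and 4-OHT at day 3 (6320 to 6822 and 6018 to 6251 CPM), day 7 (5407 to 5723 and 6793 to 7211 CPM) and day 10 (6108 to 6365 and 6697 to 7345 CPM). Nor did it between CDK8 iIEC-KO (5150 to 5262 CPM) and VillinCreERT2 organoids (5380 to 6192 CPM). IECs of CDK8 iIEC-KO/Cdk19-/- and VillinCreERT2 mice differed likewise (8928 to 9857 and 10251 to 10794 CPM). The part of these sums in the results was not tested. Summed immune markers reached at most 1.38 CPM in organoids and lay between 1749 and 2868 CPM in IECs. Cd74 was the largest part of the IEC sum, and the lymphoid markers given below were detected there as well. IEC levels therefore come from a mixture in which fewer cells of a type and less RNA per cell cannot be told apart.

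On a per-length scale, as mean CPM per kilobase of exons in VillinCreERT2 organoids, Cdkn1a stood highest at 155.0, followed by Ccng1 at 61.0 and Bax at 41.3, and Eda2r stood lowest at 1.12. The members did not form a single pattern over the 24 time course libraries. Over their 45 pairs, Pearson's r of log2 CPM had a median of 0.13 and ranged from -0.72 to 0.84, with 27 pairs above 0, as a description across libraries that share treatment and day.

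At day 7 after 4-OHT, p53 targets stood higher in the organoids that carried CreERT2 without a floxed allele than in C57BL/6 organoids given the same 4-OHT. Of the 10 genes, 6 rose, Eda2r, Phlda3, Zmat3, Trp53inp1, Cdkn1a and Mdm2, and none fell, where a gene counts as changed at an adjusted p under 0.05 (edgeR's quasi-likelihood test with Benjamini-Hochberg adjustment over all genes tested) and a fold change above 1.5. Of all 15125 genes tested, 10.9% rose and 15.5% fell by the same rule. The members and the lists used below were chosen with earlier results of these data known, so such shares serve as a description only. The median log2 fold change was 0.78 over the 10 genes and -0.02 over all genes. In 9 of the 10 genes all 3 VillinCreERT2 libraries stood above all 3 C57BL/6 libraries, against 31.5% of all genes, and Sesn1 was the exception with all 3 libraries lower, as were 32.2% of all genes.

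Among the cell cycle and growth genes, Cdkn1a, which encodes the cyclin-dependent kinase inhibitor p21, measured 512, 629 and 510.4 CPM in the VillinCreERT2 libraries and 253, 311 and 279 CPM in the C57BL/6 libraries. The groups did not overlap, and the log2 fold change was 0.97 ± 0.10 (SE, n = 3 per group, as for every value below) with an adjusted p of 3.65e-07. Zmat3, which encodes an RNA-binding zinc finger protein, measured 50.2, 49.2 and 52.8 CPM against 18.3, 20.5 and 16.4 CPM, a log2 fold change of 1.46 ± 0.09 (adjusted p = 3.07e-13). Every VillinCreERT2 library of Zmat3 lay above every C57BL/6 library. Ccng1, which encodes cyclin G1, was higher at 204 to 221 CPM against 138 to 164 CPM with an adjusted p of 1.89e-07, but its log2 fold change of 0.48 ± 0.06 stayed under the fold threshold. Sesn1, which encodes a sestrin that restrains mTORC1 signalling under stress, went the other way, at 44.8, 48.4 and 46.0 CPM against 60.9, 58.0 and 61.7 CPM and a log2 fold change of -0.38 ± 0.06 (adjusted p = 1.38e-05), also under the fold threshold.

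Of the genes linked to cell death and survival, Phlda3, whose product competes with AKT for membrane lipids, measured 11.2, 8.83 and 10.0 CPM in VillinCreERT2 and 2.54, 3.64 and 3.20 CPM in C57BL/6 organoids. Eda2r, a receptor of the tumour necrosis factor receptor family, measured 7.93, 5.09 and 6.75 CPM and 1.59, 2.50 and 2.04 CPM. These were the largest differences of the 10 genes, with log2 fold changes of 1.67 ± 0.15 and 1.68 ± 0.21 and adjusted p-values of 9.09e-10 and 1.13e-07, and neither pair of groups overlapped. Trp53inp1, which encodes a stress-induced regulator of p53 and autophagy, measured 45.8, 38.1 and 46.6 CPM against 21.5, 22.1 and 22.5 CPM, with a log2 fold change of 0.98 ± 0.09 (adjusted p = 3.05e-10). The mitochondrial death effector Bax and the BH3-only gene Bbc3, which encodes PUMA, were higher in every library but by less than the fold threshold, with log2 fold changes of 0.32 ± 0.07 (adjusted p = 0.000275) and 0.43 ± 0.11 (adjusted p = 0.00212). Mdm2, the feedback inhibitor of p53, measured 73.8, 78.4 and 82.2 CPM against 52.6, 51.1 and 51.5 CPM. Its log2 fold change of 0.60 ± 0.06 (adjusted p = 2.22e-09) lay just past the fold threshold and fell just under it with upper quartile scaling, at 0.51, and without VillinCreERT2 replicate 3, at 0.56.

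**Figure D1:**
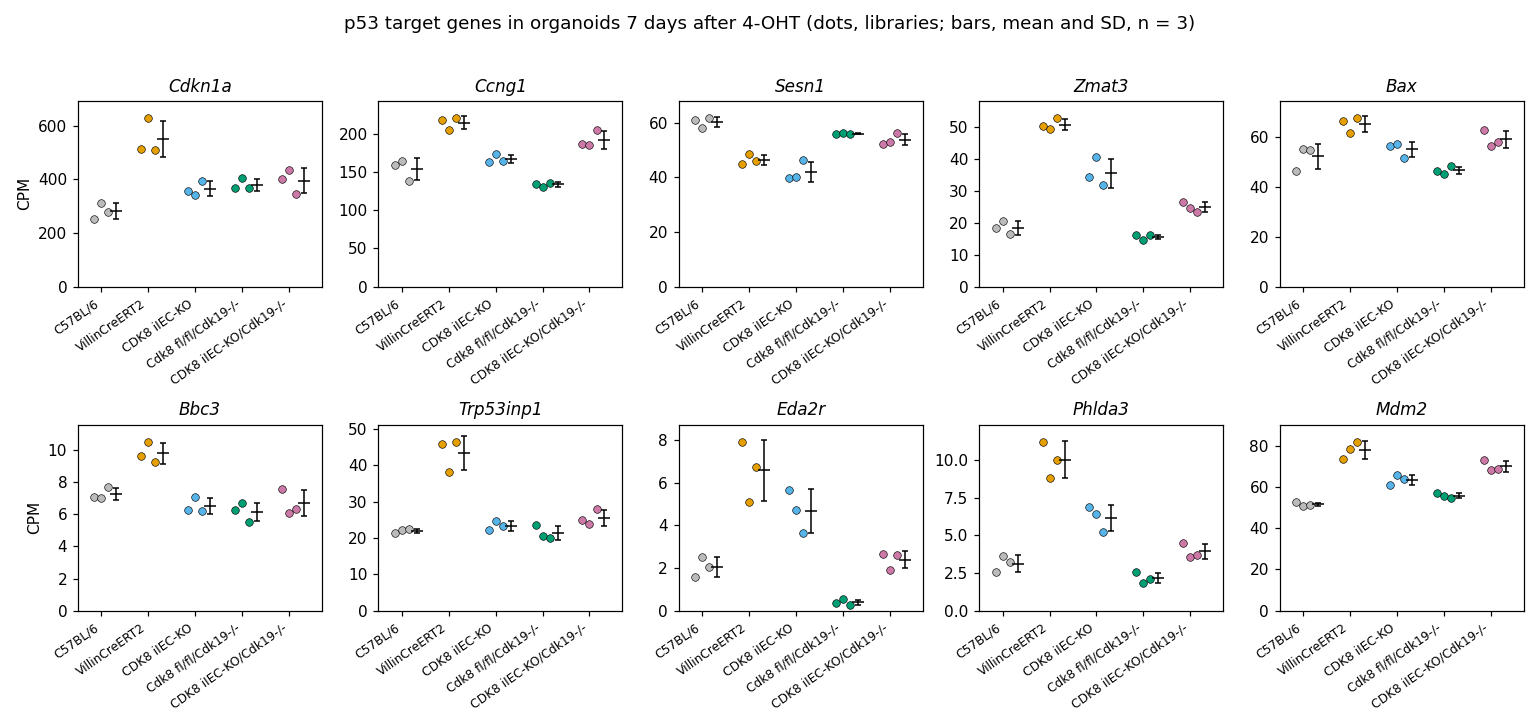
Levels of the 10 p53 target genes, as CPM on linear axes from 0, in the 5 organoid lines at day 7 after 4-OHT; dots are libraries and bars the mean and SD of 3. Except for Sesn1, the VillinCreERT2 organoids had the highest mean of the 5 lines in every gene, and Cdkn1a averaged 551 CPM there against 281 CPM in C57BL/6.

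Loss of CDK8 in the presence of CreERT2 went with lower, not higher, levels. Relative to VillinCreERT2 organoids, 4 of the 10 genes fell after CDK8 loss alone, Trp53inp1, Phlda3, Cdkn1a and Bbc3, and none rose, where 4.34% of all genes fell and 2.90% rose. The median log2 fold change over the members was -0.51, against 0.02 over all genes, and 9 of the 10 were lower by the adjusted p alone, as were 14.6% of all genes. This comparison shares the VillinCreERT2 libraries with the preceding one, so a high level in those libraries enters both. It also compares lines that differ in Xist and Ddx3y, as given above.

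Trp53inp1 measured 22.1, 24.8 and 23.2 CPM in CDK8 iIEC-KO organoids, all below the VillinCreERT2 libraries, with a log2 fold change of -0.90 ± 0.08 (adjusted p = 8.19e-09). Phlda3 measured 6.87, 6.45 and 5.20 CPM and Cdkn1a 356, 342 and 396 CPM, with log2 fold changes of -0.70 ± 0.13 (adjusted p = 0.000256) and -0.60 ± 0.10 (adjusted p = 0.000259). Bbc3 lay at 6.22 to 7.10 CPM, a log2 fold change of -0.59 ± 0.11 (adjusted p = 0.000232). None of these groups overlapped VillinCreERT2, where 20.3% of all genes had every CDK8 iIEC-KO library lower. Zmat3, at 34.2, 40.5 and 31.7 CPM, was below every VillinCreERT2 library but missed the fold threshold at -0.52 ± 0.08 (adjusted p = 2.4e-05), and Sesn1 was the gene that missed the adjusted p, at -0.14 ± 0.06 (adjusted p = 0.0914). Cdkn1a and Bbc3 lay close to the fold threshold: with upper quartile scaling both fell under it, at -0.58 and -0.58, and 2 genes remained called, and without VillinCreERT2 replicate 2 they stood at -0.49 and -0.53. Over 14 other settings Cdkn1a kept its call in 10 and Bbc3 in 9. Cdkn1a also lost it without CDK8 iIEC-KO replicate 1 or 2, at -0.58 and -0.55, and Bbc3 without CDK8 iIEC-KO replicate 1 or 3, at -0.56 and -0.55, and with no filter on low counts, at -0.58. Eda2r was called without VillinCreERT2 replicate 2 (-0.65) or CDK8 iIEC-KO replicate 1 (-0.66), and Zmat3 without CDK8 iIEC-KO replicate 2 (-0.62).

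With no recombinase in either line, 1 member passed both thresholds in Cdk8 fl/fl/Cdk19-/- against C57BL/6 organoids. Eda2r fell, at 0.348, 0.524 and 0.279 CPM against 1.59, 2.50 and 2.04 CPM, with a log2 fold change of -2.41 ± 0.36 (adjusted p = 1.99e-05), where 2.39% of all genes fell and 2.86% rose. The libraries of Eda2r did not overlap, where 15.7% of all genes had every Cdk8 fl/fl/Cdk19-/- library lower. The lines also differed in Xist, a transcript of the same chromosome, a circumstance whose part in the result was not tested. Cdkn1a was higher in Cdk8 fl/fl/Cdk19-/- organoids, at 369, 406 and 367 CPM, with a log2 fold change of 0.44 ± 0.10 (adjusted p = 0.00656) that stayed under the fold threshold. Ccng1 was lower in all 3 libraries by the adjusted p alone, at -0.20 ± 0.06 (adjusted p = 0.0267). On the adjusted p alone 1 member was thus higher and 2 were lower, where 7.66% of all genes were higher and 7.80% lower. The median over the members was -0.18. Eda2r was not tested when 10 counts were required in every library, and leaving out C57BL/6 replicate 1 added Phlda3 at -0.66.

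Organoids that lost both kinases, CDK8 iIEC-KO/Cdk19-/-, lay below VillinCreERT2 and above Cdk8 fl/fl/Cdk19-/- organoids in the members that passed the test. Relative to VillinCreERT2, 4 genes fell, Eda2r, Phlda3, Zmat3 and Trp53inp1, and none rose, where 7.95% of all genes fell and 11.5% rose. The log2 fold changes were -1.46 ± 0.20, -1.35 ± 0.15, -1.03 ± 0.08 and -0.77 ± 0.08, with adjusted p-values of 8.77e-07, 2.59e-08, 1.84e-10 and 2.58e-08. By the adjusted p alone 8 of the 10 genes were lower, against 27.1% of all genes, Cdkn1a at -0.48 and Bbc3 at -0.55 among them. Sesn1 alone was higher by the adjusted p, at 0.21 ± 0.06 (adjusted p = 0.00671), where 25.8% of all genes were, and it stayed under the fold threshold. When the mean of VillinCreERT2 and C57BL/6 organoids was taken as the control instead, only Eda2r remained called, since the other 3 genes stood at -0.51 for Phlda3, -0.30 for Zmat3 and -0.27 for Trp53inp1.

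Against Cdk8 fl/fl/Cdk19-/- organoids, which share the floxed and the null alleles but carry no recombinase, 3 genes rose in CDK8 iIEC-KO/Cdk19-/- organoids, Eda2r, Phlda3 and Zmat3, and none fell, where 6.33% of all genes rose and 4.26% fell. Zmat3 measured 26.6, 24.8 and 23.3 CPM against 16.0, 14.8 and 16.0 CPM, Phlda3 4.52, 3.56 and 3.71 CPM against 2.55, 1.86 and 2.07 CPM, and Eda2r 2.65, 1.92 and 2.60 CPM against 0.348, 0.524 and 0.279 CPM. No group overlapped its counterpart, where 24.0% of all genes had every CDK8 iIEC-KO/Cdk19-/- library higher. The log2 fold changes were 0.67 ± 0.09 (adjusted p = 3.31e-06), 0.86 ± 0.19 (adjusted p = 0.000803) and 2.63 ± 0.34 (adjusted p = 1e-06). Ccng1, Bax, Mdm2 and Trp53inp1 were higher by the adjusted p alone, the first by 0.52 ± 0.06 (adjusted p = 1.9e-07), so that 7 of the 10 genes were higher by that criterion against 17.5% of all genes. The p21 gene did not follow them: Cdkn1a measured 402, 437 and 345 CPM against 369, 406 and 367 CPM, overlapping, with a log2 fold change of 0.05 ± 0.10 (adjusted p = 0.731). Recombinase activity and CDK8 loss cannot be told apart in this pair of lines.

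In the test of whether the double knockout exceeded the single knockouts, the difference between double knockout and VillinCreERT2 was set against the sum of the CDK8 iIEC-KO difference from VillinCreERT2 and the Cdk8 fl/fl/Cdk19-/- difference from C57BL/6. Eda2r passed it, at 1.44 ± 0.43 (adjusted p = 0.00854), as did 11.3% of all genes in that direction, and no member passed it in the other, as 8.34% of all genes did. Eda2r had 6, 9 and 5 counts in the Cdk8 fl/fl/Cdk19-/- libraries, so its log2 values against that line rest on few reads, and it was not tested here when 10 counts were required in every library. Cdkn1a stood at -0.32 ± 0.14 (adjusted p = 0.075). In the order of levels, Mdm2 stepped down from VillinCreERT2 through CDK8 iIEC-KO/Cdk19-/-, then CDK8 iIEC-KO, then Cdk8 fl/fl/Cdk19-/-, to C57BL/6 with no overlap between neighbours, whereas the 3 kinase-deficient lines overlapped each other for Cdkn1a, between VillinCreERT2 above and C57BL/6 below.

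Within 1 line, the response to 4-OHT was seen at day 3 and was small. In VillinCreERT2/Cdk8 fl/fl/Cdk19-/- organoids 2 of the 10 genes rose at day 3 relative to EtOH, Eda2r and Zmat3, and none fell, where 6.42% of all genes rose and 5.95% fell. The median log2 fold change was 0.32 over the members and -0.02 over all genes. By the adjusted p alone 7 were higher, as were 15.5% of all genes, and Sesn1 was lower, as were 18.8%. In 8 genes all 4-OHT libraries stood above all EtOH libraries, against 23.8% of all genes, and in Bbc3 and Sesn1 all stood below, against 27.4%.

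Eda2r measured 5.62, 5.90 and 5.43 CPM in the EtOH libraries and 9.18, 9.78 and 11.6 CPM in the 4-OHT libraries at day 3, with a log2 fold change of 0.85 ± 0.15 (adjusted p = 3.51e-05). Zmat3 measured 26.6, 29.0 and 27.0 CPM and 43.1, 46.5 and 42.3 CPM, with a log2 fold change of 0.68 ± 0.11 (adjusted p = 1.29e-05). In both genes every 4-OHT library exceeded every EtOH library. Bax measured 45.6, 47.2 and 44.1 CPM against 62.8, 64.4 and 62.7 CPM and Cdkn1a 472, 409.7 and 440.0 CPM against 554, 655 and 514 CPM, without overlap and with log2 fold changes of 0.47 ± 0.08 (adjusted p = 3.9e-05) and 0.38 ± 0.09 (adjusted p = 0.00199), both under the fold threshold. Trp53inp1, Ccng1 and Mdm2 stood at 0.35 ± 0.10, 0.28 ± 0.06 and 0.24 ± 0.07, each with an adjusted p under 0.05. Phlda3, among the largest differences between VillinCreERT2 and C57BL/6 organoids, stood at 0.25 ± 0.10 here (adjusted p = 0.0556). Bbc3 did not pass at -0.15 ± 0.11 (adjusted p = 0.315), and Sesn1 stood at -0.38 ± 0.08 (adjusted p = 0.000313).

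After day 3 no member passed both thresholds. At day 5 none of the 10 genes was called, where 8.58% of all genes rose and 4.62% fell, and the median was 0.12. Likewise at day 7 none was called, where 9.00% rose and 9.25% fell, and the median was 0.08. At day 10 the count was again 0, where 8.86% rose and 6.92% fell, and the median was 0.12. By the adjusted p alone, 3 genes were higher and 1 lower at day 5 (18.4% and 19.9% of all genes), 2 higher and 2 lower at day 7 (22.7% and 22.5%), and 4 higher and 0 lower at day 10 (23.1% and 21.2%). At an unadjusted p under 0.05, 6 genes passed at day 5, 5 at day 7 and 5 at day 10, where 46.3%, 51.3% and 50.3% of all genes did. DESeq2 and limma-voom also called none of the 10 genes on these 3 days. Summed mesenchymal markers ran from 1.36 to 42.8 CPM in the EtOH libraries at day 7, with replicate 2 highest, and reached at most 11.4 CPM in every other organoid group. Without that library 0 members were called at day 7, and 2 for the change from day 3 to day 7.

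Cdkn1a turned from higher after 4-OHT at day 3 to lower at day 5. It measured 761, 859 and 757 CPM after EtOH and 629.7, 627 and 672 CPM after 4-OHT at day 5, every 4-OHT library lower, as in 23.0% of all genes. The log2 fold change was -0.30 ± 0.09 (adjusted p = 0.012), under the fold threshold. At day 7 it measured 1024, 836 and 744 CPM and 876, 938 and 999 CPM, overlapping, and at day 10 256, 246 and 267 CPM and 268, 255 and 232 CPM, also overlapping. Cdkn1a differed more between days than between treatments, with EtOH means of 441, 792, 868 and 257 CPM from day 3 to day 10. This describes libraries from separate days, in which day and any difference between collections cannot be told apart. Bax, Trp53inp1, Zmat3 and Ccng1 had log2 fold changes above 0 on all 4 days, and Ccng1 passed the adjusted p on each of them. After day 3 its log2 fold changes were 0.25 ± 0.06, 0.46 ± 0.06 and 0.32 ± 0.06, with adjusted p-values of 0.00165, 4.65e-07 and 7.45e-05, none past the fold threshold. At day 7 Ccng1 measured 162, 155 and 154 CPM after EtOH and 209.9, 222 and 216 CPM after 4-OHT, without overlap, where 25.2% of all genes had every 4-OHT library higher. Sesn1 moved from below EtOH at day 3 to above it at day 7 (0.27 ± 0.08, adjusted p = 0.00574) and day 10 (0.27 ± 0.08, adjusted p = 0.00478). Phlda3 and Mdm2 were lower at day 7 by the adjusted p alone, at -0.28 ± 0.11 and -0.19 ± 0.07.

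**Figure D2:**
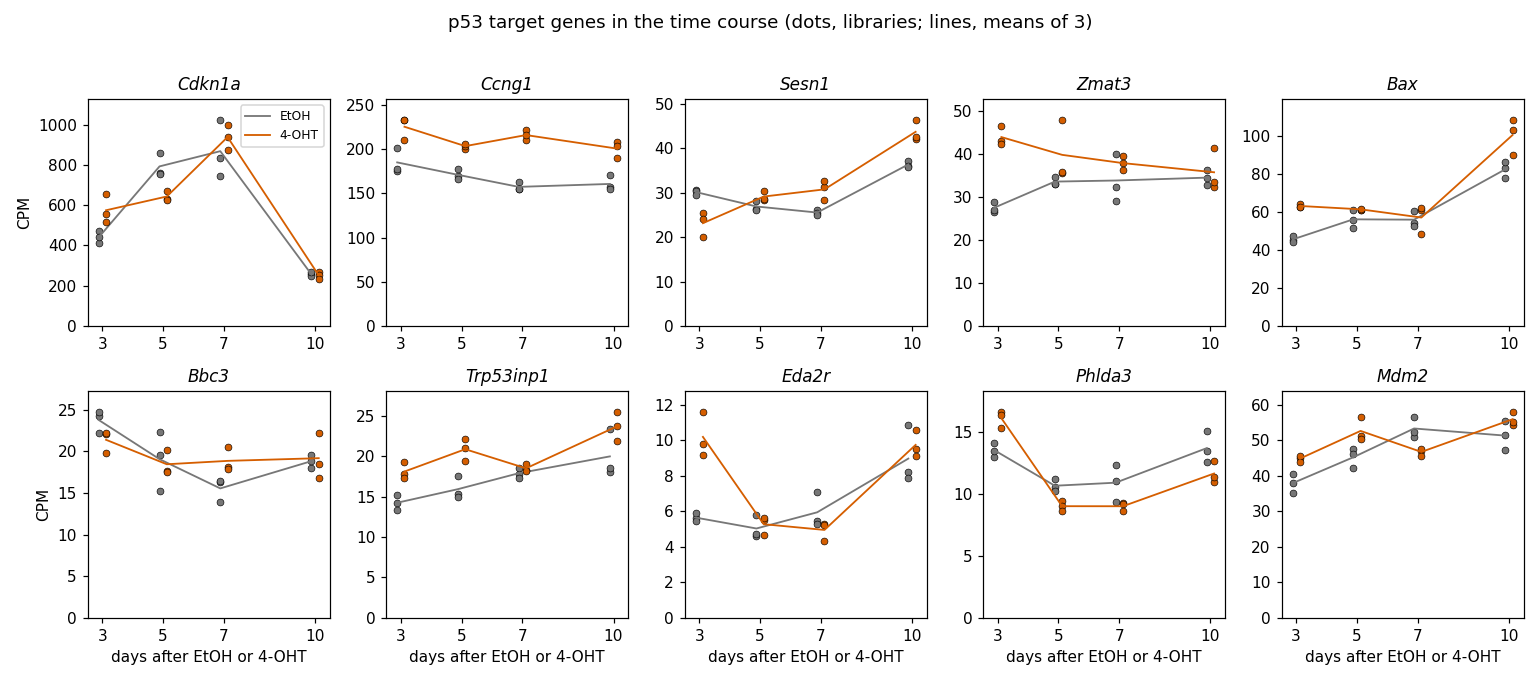
Levels of the 10 p53 target genes, as CPM on linear axes from 0, against days after EtOH (grey) or 4-OHT (orange) in VillinCreERT2/Cdk8 fl/fl/Cdk19-/- organoids; dots are libraries and lines join the means of 3. Eda2r and Zmat3 stood apart at day 3 and overlapped the EtOH libraries at days 7 and 10, and the Ccng1 mean lay above EtOH on all 4 days.

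The change of the 4-OHT difference between days was tested directly. From day 3 to day 5 it fell for Cdkn1a (-0.68 ± 0.13, adjusted p = 0.000204) and Eda2r (-0.79 ± 0.22, adjusted p = 0.00515), where 9.01% of all genes moved down and 11.2% up. From day 3 to day 7 it fell for Eda2r (-1.11 ± 0.22, adjusted p = 0.000103) and rose for Sesn1 (0.65 ± 0.11, adjusted p = 2.12e-05), where 12.1% moved down and 12.4% up. From day 3 to day 10 it fell for Eda2r (-0.73 ± 0.20, adjusted p = 0.00402) and Zmat3 (-0.63 ± 0.15, adjusted p = 0.00126) and rose for Sesn1 (0.65 ± 0.11, adjusted p = 1.56e-05), where 12.4% moved down and 13.9% up. With no fold threshold, the adjusted p was passed by 5, 5 and 4 of the 10 members in the downward direction from day 3 to days 5, 7 and 10, as it was by 17.6%, 20.1% and 21.4% of all genes. The 3 tests share the day 3 libraries. Leaving out single libraries moved these counts: without 4-OHT day 3 replicate 2 the Cdkn1a value at day 5 was -0.58 and 1 gene was called, and without 4-OHT day 3 replicate 1 or 4-OHT day 7 replicate 2 the Sesn1 value at day 7 was 0.56 or 0.58 and 1 gene was called, whereas without EtOH day 7 replicate 3 there were 4, with Phlda3 at -0.63 and Zmat3 at -0.61 added.

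In Wnt3-CM the p53 targets of the same genotype fell after 4-OHT. At day 10, 6 of the 10 genes fell after 4-OHT relative to EtOH, Phlda3, Trp53inp1, Eda2r, Cdkn1a, Bbc3 and Zmat3, and none rose, where 7.42% of all genes fell and 9.45% rose. The median log2 fold change was -1.06 over the members and 0.00 over all genes. By the adjusted p alone 8 genes were lower, Ccng1 and Bax added, against 23.9% of all genes, Sesn1 was higher, as were 24.3%, and Mdm2 did not pass. The 7 epithelial markers summed to 10313 to 10769 CPM after EtOH and 7768 to 8396 CPM after 4-OHT in these libraries, without overlap, and their part in the result was not tested.

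Among the effectors, Cdkn1a measured 733, 706 and 704 CPM after EtOH and 377, 315 and 294 CPM after 4-OHT, with a log2 fold change of -1.12 ± 0.08 (adjusted p = 4.75e-10). Trp53inp1 measured 71.1, 80.5 and 74.6 CPM and 29.2, 27.9 and 28.8 CPM, and Zmat3 60.2, 67.6 and 61.0 CPM and 37.2, 28.4 and 27.4 CPM. Every 4-OHT library of these genes lay below every EtOH library, as was so for 28.1% of all genes. The log2 fold changes of Trp53inp1 and Zmat3 were -1.40 ± 0.07 (adjusted p = 1.58e-12) and -1.02 ± 0.10 (adjusted p = 2.23e-07). Of the death and survival genes, Phlda3 measured 44.0, 49.2 and 43.4 CPM and 18.4, 13.1 and 12.3 CPM, Bbc3 35.6, 43.6 and 44.3 CPM and 22.3, 17.5 and 17.9 CPM, and Eda2r 15.1, 20.0 and 16.1 CPM and 7.85, 7.19 and 7.98 CPM. These groups did not overlap either, and the log2 fold changes were -1.64 ± 0.12 (adjusted p = 9.06e-08), -1.10 ± 0.10 (adjusted p = 5.63e-08) and -1.15 ± 0.12 (adjusted p = 7.95e-08). Ccng1 and Bax stood at -0.55 ± 0.07 (adjusted p = 3.6e-06) and -0.41 ± 0.09 (adjusted p = 0.00104), Sesn1 at 0.40 ± 0.07 (adjusted p = 9.99e-05), and Mdm2 at -0.06 ± 0.07 (adjusted p = 0.477).

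The difference from standard medium was tested in a joint fit of both day 10 sets. The 4-OHT effect was lower in Wnt3-CM for 8 of the 10 genes, where 6.21% of all genes were lower and 7.11% higher, with a median of -1.09 over the members. The values ran from -0.70 ± 0.13 for Bax (adjusted p = 0.000404) to -1.64 ± 0.13 for Trp53inp1 (adjusted p = 2.5e-08), and Mdm2 (-0.19 ± 0.10, adjusted p = 0.168) and Sesn1 (0.14 ± 0.10, adjusted p = 0.334) were the members that did not pass. On that joint scale Cdkn1a averaged 257 CPM in standard medium with EtOH, 250.7 with 4-OHT, 725 in Wnt3-CM with EtOH and 330.5 with 4-OHT, so the group that stood apart was Wnt3-CM with EtOH. Trp53inp1 averaged 20.0, 23.6, 76.5 and 28.8 CPM and Phlda3 13.7, 11.6, 46.2 and 14.7 CPM in the same order. The 2 media were deposited in separate tables, so medium and any difference between the experiments cannot be told apart in these levels.

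**Figure D3:**
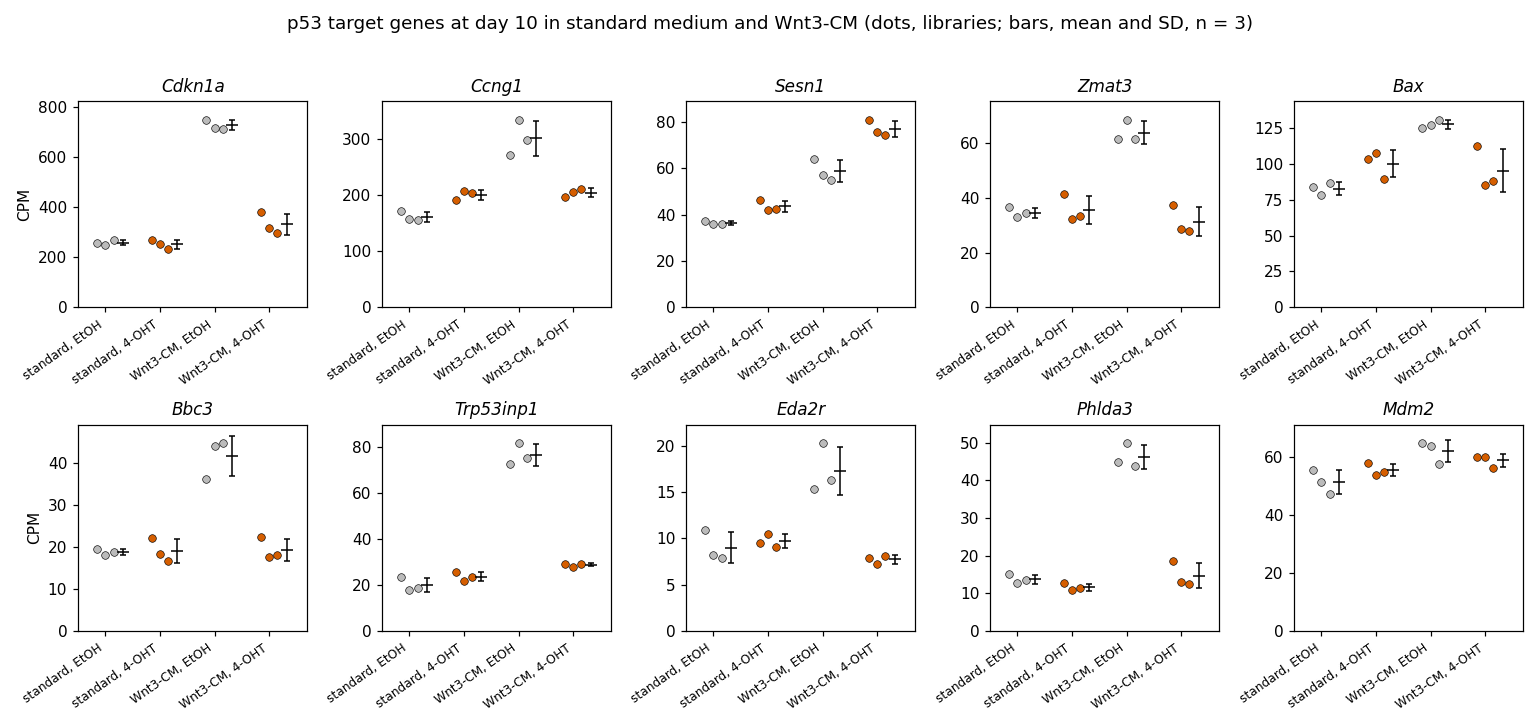
Levels of the 10 p53 target genes at day 10 in VillinCreERT2/Cdk8 fl/fl/Cdk19-/- organoids, as CPM from a joint normalisation on linear axes from 0, in standard medium and Wnt3-CM after EtOH (grey) or 4-OHT (orange); dots are libraries and bars the mean and SD of 3. Wnt3-CM with EtOH stood above the other 3 groups for all genes but Sesn1 and Mdm2, with Trp53inp1 averaging 76.5 CPM there.

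Where CDK8 was deleted beside a kinase-dead CDK19, no member passed both thresholds. The names of these 6 count columns give the treatment and not the genotype, which was assigned by elimination. In Cdk19 ko/D173A organoids at day 7 after 4-OHT, 0 of the 10 genes were called, where 6.05% of all genes rose and 6.25% fell, and the median log2 fold change was 0.17. By the adjusted p alone 2 genes were higher and 1 lower, against 14.2% and 13.7% of all genes, and at an unadjusted p under 0.05 6 passed, against 38.9%. DESeq2 and limma-voom also called none. Ccng1 was higher, at 177, 157 and 144 CPM against 139, 129 and 121 CPM after EtOH, with a log2 fold change of 0.30 ± 0.09 (adjusted p = 0.0246), as was Cdkn1a (0.25 ± 0.08, adjusted p = 0.0416). Phlda3 was lower, at 6.57, 4.90 and 6.05 CPM against 10.3, 8.16 and 7.39 CPM, with a log2 fold change of -0.56 ± 0.16 (adjusted p = 0.0275). Its groups did not overlap, where 21.6% of all genes had every 4-OHT library lower. Phlda3 was called with upper quartile scaling, at -0.61, and without 1 of the EtOH libraries or either of 2 of the 4-OHT libraries, at -0.68, -0.66 and -0.59. In the joint fit with the day 7 time course, 0 members passed for a difference in their 4-OHT effect between kinase-dead and null CDK19, where 4.90% of all genes were higher and 6.25% lower. The member with the largest such difference was Bbc3, at -0.52 ± 0.21 (adjusted p = 0.0894), called at -0.67 without 1 of the 4-OHT libraries. At an unadjusted p under 0.05, 2 members passed, Bbc3 and Mdm2, against 33.2% of all genes, and DESeq2 and limma-voom called none. The kinase-dead line held 9112 to 20084 counts of Xist per library and the time course line at most 10, so these lines differ in sex-linked transcripts as well as in Cdk19.

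In IECs 14 days after tamoxifen, 0 of the 10 genes were called between CDK8 iIEC-KO/Cdk19-/- and VillinCreERT2 mice, where 0.646% of all genes rose and 0.856% fell. Over the members the median log2 fold change was 0.25, with 8 of 10 above 0, and over all genes it was 0.00. Cdkn1a measured 334, 260.0 and 319 CPM in double knockout and 274, 251 and 221 CPM in VillinCreERT2 IECs, overlapping, with a log2 fold change of 0.29 ± 0.13 (adjusted p = 0.28). Sesn1 measured 56.1, 78.0 and 82.7 CPM against 130.2, 126 and 112 CPM, all double knockout libraries lower, with a log2 fold change of -0.76 ± 0.16 (adjusted p = 0.073). It missed the threshold in edgeR's quasi-likelihood test and passed it in DESeq2, at -0.76 (adjusted p = 0.000557), and without a filter on low counts, at -0.80. limma-voom called none of the 10 genes. At an unadjusted p under 0.05, 2 members passed, Sesn1 and Ccng1, against 19.9% of all genes, and Ccng1, at 0.28 ± 0.10 (adjusted p = 0.193), was beside Sesn1 the other gene whose libraries did not overlap, where 12.2% of all genes had all double knockout libraries higher and 14.6% all lower. Eda2r and Phlda3 were low, at 1.70, 1.31 and 0.491 CPM against 0.274, 0.761 and 0.267 CPM and 3.45, 1.36 and 0.687 CPM against 0.165, 1.85 and 0.535 CPM, and both overlapped. Summed mesenchymal markers ran from 12.9 to 895 CPM in the VillinCreERT2 and from 464 to 983 CPM in the double knockout IEC libraries. Cd74, the highest of the 10 immune markers, ran from 1597 to 2692 CPM in VillinCreERT2 and from 998 to 1375 CPM in double knockout IECs. Lymphoid markers went the other way, with Cd3e at 8.28 to 16.5 against 18.7 to 29.6 CPM, Cd8a at 21.1 to 40.6 against 47.0 to 82.6 CPM, Igkc at 10.1 to 117 against 299 to 527 CPM and Jchain at 2.14 to 31.4 against 88.9 to 149 CPM. Xist had 2457 to 3150 counts in the VillinCreERT2 IEC libraries and 22 to 2362 in those of the double knockout, 1 of which held over 100 counts of Ddx3y. The part of these other cells and of sex in the levels was not tested, and leaving out any 1 library left 0 members called.

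**Figure D4:**
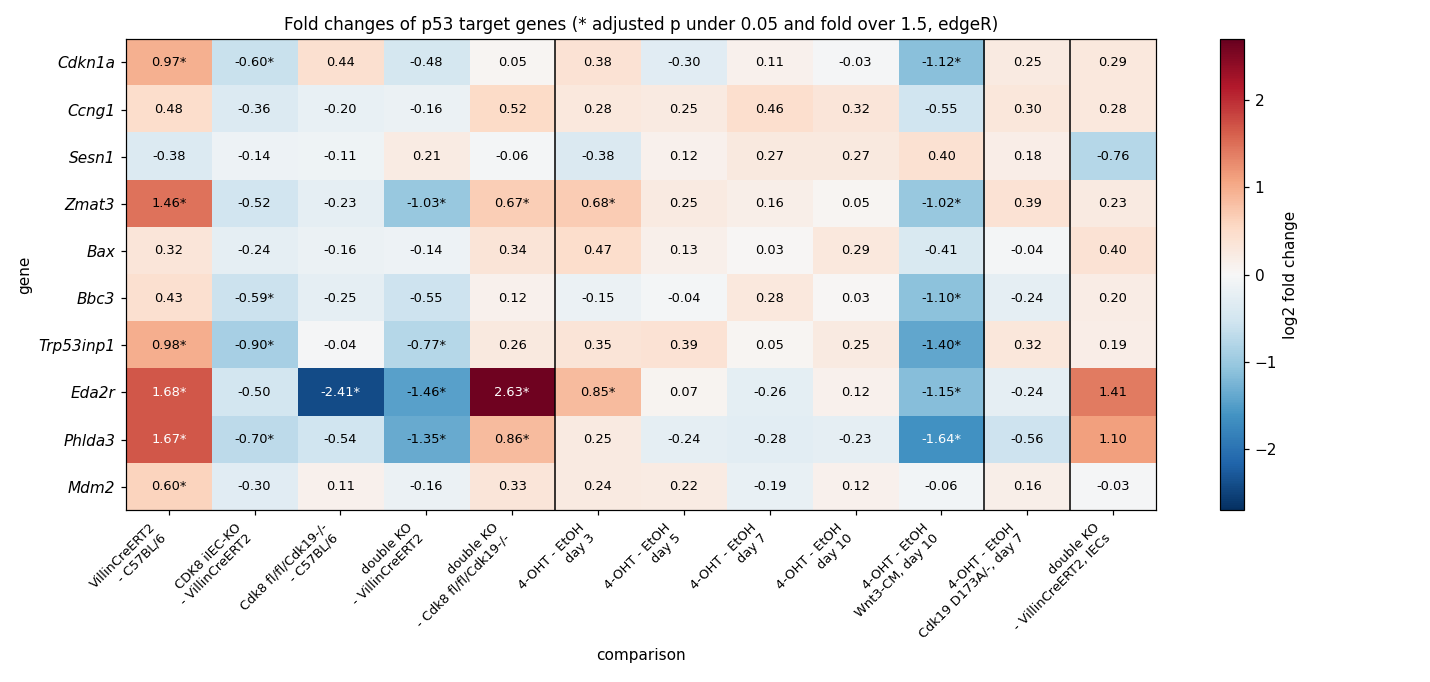
Log2 fold changes of the 10 p53 target genes (rows) in 12 comparisons (columns), first group minus second, printed in each cell and coloured red for higher and blue for lower; asterisks mark an adjusted p under 0.05 with a fold change above 1.5. The VillinCreERT2 against C57BL/6 column and the Wnt3-CM column each hold 6 asterisks, the first all on rises and the second all on falls, and the most extreme marked values are those of Eda2r, 2.63 and -2.41, in the columns that involve Cdk8 fl/fl/Cdk19-/- organoids.

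The transcript of p53 itself was measured in the same libraries. Trp53 was lower in VillinCreERT2 than in C57BL/6 organoids by the adjusted p alone, at -0.29 ± 0.05 (adjusted p = 2.74e-05), and higher in CDK8 iIEC-KO than in VillinCreERT2 organoids, at 0.27 ± 0.05 (adjusted p = 0.000226), while the members called there differed in the opposite direction. In the double knockout Trp53 was lower than in VillinCreERT2 organoids by the adjusted p alone, as the members called there were lower, at -0.13 ± 0.05 (adjusted p = 0.0439). It was also lower than in Cdk8 fl/fl/Cdk19-/- organoids, at -0.20 ± 0.05 (adjusted p = 0.00426), while the members called there were higher. In Wnt3-CM Trp53 did not pass after 4-OHT, at -0.10 ± 0.06 (adjusted p = 0.204). Every 4-OHT library lay below every EtOH library there, as was so for 28.1% of all genes. In the time course it stood at 0.00 ± 0.09 on day 3 (adjusted p = 0.978), -0.33 ± 0.09 on day 5 (adjusted p = 0.00483), -0.50 ± 0.09 on day 7 (adjusted p = 4.78e-05) and -0.24 ± 0.09 on day 10 (adjusted p = 0.0364). p53 is known to be controlled chiefly as a protein, which these data do not measure. Mdm4, a relative of MDM2 that restrains p53, stood at 0.04 ± 0.09 in VillinCreERT2 against C57BL/6 organoids (adjusted p = 0.696). Over the time course it stood at -0.09 ± 0.09 on day 3 (adjusted p = 0.499) and 0.44 ± 0.09 on day 5 (adjusted p = 0.000534). Later it stood at -0.24 ± 0.09 on day 7 (adjusted p = 0.0367) and -0.35 ± 0.09 on day 10 (adjusted p = 0.00286). After 4-OHT it was lower in Wnt3-CM, at -0.25 ± 0.07 (adjusted p = 0.0083), and in Cdk19 ko/D173A organoids, at -0.28 ± 0.07 (adjusted p = 0.0111).

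A wider list of 38 other p53 targets was counted in the same comparisons. Between VillinCreERT2 and C57BL/6 organoids 11 of 35 tested rose and 2 fell, where 10.9% of all genes rose and 15.5% fell, and the median log2 fold change was 0.31 against -0.02 over all genes. Those with the largest rises were the polo-like kinase gene Plk2 (1.61 ± 0.15), Tnfrsf23 (1.08 ± 0.12) and Trp53i11 (1.07 ± 0.10), and those that fell were Ptp4a3 (-0.97 ± 0.11) and the DNA repair gene Ddb2 (-0.91 ± 0.10). At day 3 after 4-OHT, 9 of 36 rose and 2 fell, against 6.42% and 5.95% of all genes, with a median of 0.13 and with Tnfrsf23 (1.76 ± 0.33), Plk2 (1.64 ± 0.14) and Ptp4a3 (1.44 ± 0.18) highest and the death receptor gene Fas (-0.90 ± 0.17) and Ephx1 (-0.65 ± 0.17) lower. Ptp4a3 therefore fell in the first comparison and rose in the second. In CDK8 iIEC-KO/Cdk19-/- against VillinCreERT2 organoids 1 of 35 rose and 9 fell, led by Dyrk3 (-1.67 ± 0.18) and Plk2 (-1.60 ± 0.15), with a median of -0.12, where 11.5% of all genes rose and 7.95% fell. In Wnt3-CM 1 of 36 rose and 11 fell, led by the stress cytokine gene Gdf15 (-1.58 ± 0.10), with a median of -0.19, where 9.45% of all genes rose and 7.42% fell. In CDK8 iIEC-KO against VillinCreERT2 organoids 1 of 35 rose and 2 fell, where 2.90% and 4.34% of all genes did. In Cdk8 fl/fl/Cdk19-/- against C57BL/6 organoids 0 rose and 2 fell, where 2.86% and 2.39% of all genes did, and in the double knockout against Cdk8 fl/fl/Cdk19-/- organoids 1 rose and 0 fell, where 6.33% and 4.26% did. At day 5 of the time course 1 of 36 rose and 2 fell (8.58% and 4.62% of all genes). At day 7, 4 rose and 5 fell (9.00% and 9.25%), and at day 10, 3 rose and 5 fell (8.86% and 6.92%). In Cdk19 ko/D173A organoids 4 of 35 rose and 0 fell (6.05% and 6.25%). In IECs 0 of 36 were called in edgeR's test, and 6 passed at an unadjusted p under 0.05, as did 19.9% of all genes.

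Of 14 tested regulators of p53, 1 rose and 2 fell between VillinCreERT2 and C57BL/6 organoids, the kinase gene Hipk2 (1.46 ± 0.14) against Rpl11 (-0.94 ± 0.12), whose product binds MDM2, and the checkpoint kinase gene Chek1 (-0.61 ± 0.09). These counts are near the 10.9% and 15.5% of all genes that rose and fell. At day 3 after 4-OHT, Chek1 was the 1 regulator called, higher at 0.60 ± 0.14, and by day 7 it had fallen relative to EtOH at -0.83 ± 0.15. Of the DNA damage repair genes 1 of 14 fell and none rose between VillinCreERT2 and C57BL/6 organoids, where 15.5% of all genes fell and 10.9% rose. By the adjusted p alone 9 were lower and 2 higher there, against 31.2% and 30.1% of all genes, and their median was -0.26. At day 3 after 4-OHT 2 of the 14 repair genes rose and none fell, where 6.42% and 5.95% of all genes did. At day 7, 9 of 14 fell and none rose, where 9.25% of all genes fell and 9.00% rose. Of the proliferation genes 0 of 16 were called at day 3 in edgeR's test, although 9 were higher by the adjusted p alone, against 15.5% of all genes, and 13 passed at an unadjusted p under 0.05, against 42.9%. At day 7, 15 of 16 fell. Between VillinCreERT2 and C57BL/6 organoids 0 of 16 proliferation genes were called in either direction, 13 were lower by the adjusted p alone, against 31.2% of all genes, 15 passed at an unadjusted p under 0.05, against 64.8%, and their median was -0.22. By the adjusted p alone 14 were higher in CDK8 iIEC-KO than in VillinCreERT2 organoids, against 15.7% of all genes, with none called. In the double knockout against VillinCreERT2 organoids 10 were lower and 1 higher by that criterion, against 27.1% and 25.8%, with 1 called lower. After 4-OHT in Wnt3-CM 4 proliferation genes rose and none fell, where 9.45% of all genes rose and 7.42% fell. Targets of the integrated stress response, several of which respond to more than 1 kind of stress, were counted as well: 6 of 10 rose and none fell between VillinCreERT2 and C57BL/6 organoids, where 10.9% of all genes rose, led by Chac1 (1.87 ± 0.10). At day 3 after 4-OHT 4 rose and none fell, where 6.42% of all genes rose. The list did not always move with the members. In Cdk8 fl/fl/Cdk19-/- against C57BL/6 organoids 3 rose and none fell, where 2.86% of all genes rose. In the double knockout against Cdk8 fl/fl/Cdk19-/- organoids 2 fell and none rose, where 4.26% of all genes fell. In the double knockout 8 fell against VillinCreERT2 organoids, where 7.95% of all genes fell, and in Wnt3-CM 8 of 10 fell, where 7.42% did, led by Ddit3 (-2.30 ± 0.10). At day 7 of the time course, 5 of them fell while no p53 member was called.

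Over the 24 time course libraries the genes whose log2 CPM was most like that of Cdkn1a, among 11597 compared, were Rac1, Cfl1, Ywhaz, Gsk3a and Jund, with Pearson's r from 0.965 to 0.976. Those most like Mdm2 were Pik3r3, Slc6a9, Ccnyl1, Stxbp5 and Nploc4, with r from 0.899 to 0.952. None of these is a member of the p53 target lists used here, and the libraries share day and treatment, so the coefficients describe these libraries only.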

How the data were processed

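The deposited tables hold raw read counts for each gene, which the authors made from poly-A-selected, paired-end RNA-Seq reads; the submitters' processing notes name STAR 2.5.2, featureCounts from Subread 1.6.3 and the mm10 build, and the annotation release and strand setting are not given in the sources used here. Tables were joined by gene identifier, since some gene symbols are written as dates, none of them in the lists used. Columns were tied to samples by their names; the names of the Cdk19 ko/D173A organoid columns give EtOH or 4-OHT but not the genotype, which was assigned by elimination as the only organoid groups left, and 6 columns of kinase-dead IECs could not be tied to the labels and were not used. No 2 libraries held identical counts.

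Each table was fitted as a whole with edgeR 4.0.16 in R 4.3.3 (TMM, filterByExpr, robust quasi-likelihood F-test on group means), with Benjamini-Hochberg adjustment over all genes tested. A gene was called at an adjusted p under 0.05 and a fold change above 1.5. The 2 comparisons between tables used a joint fit of 12 libraries. SE is the log2 fold change divided by the square root of F. CPM used TMM-scaled library sizes, and each group held 3 libraries of 15485959 to 32909565 counts. The test was checked on simulated counts. Alternatives were DESeq2 1.42.0, limma-voom 3.58.1, other scalings, filters and controls, a replicate block, and each library left out.

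Replicate numbers were checked as pairs in the 12 comparisons of 2 groups, by the labels or, for Wnt3-CM and Cdk19 ko/D173A organoids, by the end of the column name: the lowest correlation of deviations between same-numbered libraries was below 0.1 in each, so the samples were taken to share only a number. All 10 members, Trp53 and Mdm4 were named whatever their values, and Cdk8 and Cdk19 as checks of the labels. Of the p53 lists, up to 3 genes called higher and 3 lower were named per comparison, by log2 fold change, among genes averaging at least 50 counts in a group; of other lists up to 2 genes; and the 5 genes most like Cdkn1a and Mdm2. The members and lists were chosen with earlier results of these data known. Promoter sequences came from RefSeq (GRCm38.p6). Figures were drawn with matplotlib 3.10.9.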

Additional observations from a re-analysis of the deposited data

Results flagged for a closer look

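Some members passed a test of whether the 4-OHT effect differed between days. Between day 3 and day 5 the 4-OHT effect moved by -0.68 on the log2 scale for Cdkn1a and by -0.79 for Eda2r, where 9.01% of all genes moved down and 11.2% up. Between day 3 and day 7 it moved by -1.11 for Eda2r and by 0.65 for Sesn1, where 12.1% moved down and 12.4% up. Between day 3 and day 10 it moved by -0.73 for Eda2r, by -0.63 for Zmat3 and by 0.65 for Sesn1, where 12.4% moved down and 13.9% up. Without the fold threshold, 5 of 10 members moved down by the adjusted p from day 3 to day 5, 5 from day 3 to day 7 and 4 from day 3 to day 10, where 17.6%, 20.1% and 21.4% of all genes did. All these tests use the same day 3 libraries.

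The 4-OHT effect at day 10 also differed between Wnt3-CM and standard medium, by the test of the difference in the joint fit, for 8 members, where 6.21% of all genes were lower. The difference was -1.10 for Cdkn1a, -0.87 for Ccng1, -1.07 for Zmat3 and -1.64 for Trp53inp1. For the death and survival genes it was -0.70 for Bax, -1.13 for Bbc3, -1.27 for Eda2r and -1.41 for Phlda3.

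In organoids at day 7 the double knockout exceeded the sum of both single knockouts by 1.44 on the log2 scale for Eda2r, a gene with fewer than 10 counts in each Cdk8 fl/fl/Cdk19-/- library. This is 1 of 10 members, where 11.3% of all genes passed in that direction.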

How the results depend on the processing

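Of 2832 values of single members under an alternative, 22 lost the call, 18 gained it and the others kept their side of it. The sign turned in 48, none of them called, and in 45 of these neither adjusted p was under 0.05. The other 3 came with the mean of both control lines, where the double knockout values were 0.0031 for Cdkn1a, 0.081 for Ccng1 and 0.14 for Mdm2, against -0.48, -0.16 and -0.16 with VillinCreERT2 as the control. Requiring 10 counts in every library left 0 members called for Cdk8 fl/fl/Cdk19-/- set against C57BL/6 organoids and 0 in the excess of the double knockout, because Eda2r was no longer tested. Upper quartile scaling left 2 members called in CDK8 iIEC-KO against VillinCreERT2 organoids and 1 in Cdk19 ko/D173A organoids, and it moved the median of all genes between VillinCreERT2 and C57BL/6 organoids from -0.02 to -0.10. With the mean of both control lines, 1 member was called in the double knockout. In IECs 1 member was called with no filter and 1 with DESeq2. Leaving out single libraries gave 5 to 6 members between VillinCreERT2 and C57BL/6, 3 to 4 in CDK8 iIEC-KO, 1 to 2 in Cdk8 fl/fl/Cdk19-/- (2 without C57BL/6 replicate 1), 4 to 5 in the double knockout against VillinCreERT2, 3 against Cdk8 fl/fl/Cdk19-/- and 1 for the excess. It gave 2 at day 3, 0 at days 5, 7 and 10, 1 to 3 for day 5 against day 3, 1 to 4 for day 7 against day 3 and 2 to 3 for day 10 against day 3. It gave 6 to 7 in Wnt3-CM, 8 for Wnt3-CM against standard medium, 0 to 1 in Cdk19 ko/D173A organoids, 0 to 1 for kinase-dead against null and 0 in IECs. A replicate block changed none of these counts, which stayed at 6, 4, 1, 4, 3 and 1 for the day 7 lines in the order of the report, 2, 0, 0 and 0 for days 3, 5, 7 and 10, 2, 2 and 3 for the differences between days, and 0 in IECs. A replicate block by the number at the end of the column name, chosen after seeing the data, left 6 in Wnt3-CM, 0 in Cdk19 ko/D173A organoids, and 8 and 0 in the joint fits. In Cdk19 ko/D173A organoids 4 members in place of 2 were then higher by the adjusted p alone, and same-numbered libraries correlated at 0.379, 0.185 and 0.095. A planned comparison of kinase-dead IECs was not run, as its columns could not be tied to the labels. Unless a reason is given here, the cause of a change was not tested. Eda2r had as few as 5 counts in a Cdk8 fl/fl/Cdk19-/- library.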
